A study of Homo sapiens with 9 samples.

Results

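The genes described here build and shape the actin cytoskeleton beneath the plasma membrane of B cells. They are 50 named genes of actin nucleation and the cell cortex, and a gene counted as measured when a probe set of the array named that gene and no other. Where several such probe sets existed, the one with the highest mean over all 9 arrays stood for the gene. In this way 45 of the 50 genes were measured, among 19775 genes on the array. No probe set naming ACTR2, FLNA or TPM3 alone was available here. ACTG1 was read only by 9 probe sets that name ACTB as well, and DBNL only by 1 probe set that also names a microRNA gene.

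All arrays hold RNA of BL2, an established human Burkitt lymphoma line used in the study to represent germinal centre B cells that have turned malignant. Control cells were left untreated, a further set received recombinant human CD40L at 200 ng/ml for 6 hrs, and the last set received LPS at 1 μM for 6 hrs. CD40L is the T cell ligand of CD40, and LPS is a bacterial glycolipid that is sensed through TLR4. Each of 3 experimental batches, described by the study as independent biological experiments, gave 1 HG-U133 Plus 2.0 array per condition (n = 3 arrays per condition). All results come from 1 cell line in culture, and in bulk RNA fewer cells with a transcript and less of it per cell cannot be told apart.

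Actin monomers polymerise into filaments, and a B cell rebuilds its cortical filaments when it spreads, migrates or engages antigen. Branched networks are started by the Arp2/3 complex, which is switched on by WASP and by the WAVE complex, while formins start unbranched filaments. Other proteins store monomers, sever or cap filaments, bundle them, pull on them, or tie them to the membrane. CD40 and TLR4 both signal to NF-κB, and many actin genes are classical targets of serum response factor, which binds a DNA element called the CArG box.

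The sequences before the start sites of the 3 genes that passed the test after CD40L are shown first, since these are the members the results turn on. They are the 250 bases upstream of a RefSeq start (GRCh38.p14), printed 5′ to 3′ on the gene's strand. Capitals mark the TATA motif TATAAA, the CCAAT box and the GC box, spelled GGGCGG. All were searched on both strands, and matches may overlap.
LCP1, chr13:46182178-46182427, minus strand: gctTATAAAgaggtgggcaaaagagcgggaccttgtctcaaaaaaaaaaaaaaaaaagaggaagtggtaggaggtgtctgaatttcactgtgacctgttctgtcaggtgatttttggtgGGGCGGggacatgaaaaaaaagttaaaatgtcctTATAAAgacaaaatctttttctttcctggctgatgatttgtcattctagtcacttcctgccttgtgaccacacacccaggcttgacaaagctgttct
RDX, chr11:110296615-110296864, minus strand: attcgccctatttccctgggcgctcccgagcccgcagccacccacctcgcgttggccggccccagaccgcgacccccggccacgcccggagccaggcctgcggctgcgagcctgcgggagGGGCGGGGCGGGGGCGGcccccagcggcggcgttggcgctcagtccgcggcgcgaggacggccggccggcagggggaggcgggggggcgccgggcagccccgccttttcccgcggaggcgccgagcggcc
MYH9, chr22:36387968-36388217, minus strand: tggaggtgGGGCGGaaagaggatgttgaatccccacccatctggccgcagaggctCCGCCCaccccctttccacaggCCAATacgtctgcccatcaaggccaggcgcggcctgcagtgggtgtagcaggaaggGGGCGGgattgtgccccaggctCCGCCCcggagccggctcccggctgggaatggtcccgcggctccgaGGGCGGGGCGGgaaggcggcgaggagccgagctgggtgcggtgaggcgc
The LCP1 window held TATAAA at 2 places and GGGCGG at 1, the RDX window 3 copies of GGGCGG in 1 unbroken stretch, and the MYH9 window 6 copies of GGGCGG and 1 CCAAT. No CArG box and no κB site, the element bound by NF-κB, was found in these windows. The CArG box was searched as CCWWWWWWGG and the κB site as GGGRNNYYCC. Here W is A or T, R is A or G, Y is C or T and N is any base. Only exact matches to these patterns counted, so sites of other forms were not searched.

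Of the 50 genes, 45 had 1 or more windows of this kind, 74 windows in all. ARPC1B, ACTB, WASF2, NCKAP1L and CTTN had no window and were not searched. The 45 genes with a window are thus not the same as the 45 measured. GGGCGG stood in 71.6% of the 74 windows, against 42.6% of all 35116 windows. CCAAT stood in 24.3% against 32.0%, TATAAA in 4.05% against 10.7%, and a κB site in 18.9% against 9.96%. A CArG box stood in 5.41% of the 74 windows, against 1.16% of all. The 4 genes with a CArG box are shown with 10 bases on either side of it, the box in capitals. Among them ACTG1 and FLNA were not measured on a probe set of their own.
ACTN1, chr14:68977718-68977747, minus strand: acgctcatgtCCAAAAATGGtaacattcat
ACTG1, chr17:81512874-81512903, minus strand: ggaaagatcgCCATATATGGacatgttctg
TPM4, chr19:16067355-16067384, plus strand: aatcctaggtCCAAATAAGGcgagggctgc
FLNA, chrX:154374709-154374738, minus strand: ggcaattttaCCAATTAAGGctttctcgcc
The box ended 84 bases before the start in ACTG1 and FLNA, 161 bases in ACTN1 and 163 bases in TPM4. Windows of 1 gene can overlap, and a match describes the letters only.

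Levels are given on a generalised log2 scale: it runs like log2 where probe sets are bright, and dim probe sets are compressed on it. Array medians lay between 6.42 and 6.48, and replicates of a condition correlated at 0.994 to 0.997 across probe sets. The defining B cell marker MS4A1 and its list stood high, with a mean over 9 measured B cell and germinal centre markers of 10.7 to 10.8 in the control arrays, 10.5 in the CD40L arrays and 10.5 to 10.6 in the LPS arrays. The mean over 7 T and NK cell markers stayed between 6.27 and 6.38, over 7 monocyte markers between 6.20 and 6.32, and over 8 fibroblast markers between 6.45 and 6.56, all close to the array medians. Of the B cell markers, 6 of 9 were lower after CD40L, against 2.92% of all genes and 4.47% of genes above the median level. After LPS 5 of 9 were lower, against 1.48% and 2.3%. None was called higher in either comparison, although the highest estimate was 0.39 after CD40L and 0.31 after LPS.

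Many actin genes varied between arrays in a way that did not follow the 3 conditions. The GAPDH 3′ control probe set of the array divided the arrays into 5 with a reading of 13.7 to 13.8 and 4 with a reading of 14.0 to 14.1. The lower set held all of batch 1 and the CD40L and LPS arrays of batch 2, and the higher set held all of batch 3 and the control array of batch 2. The 18S rRNA control read 6.50 to 6.75 in the lower and 6.91 to 7.06 in the higher set. The 3′ reading of the ACTB control exceeded its 5′ reading by 0.31 to 0.41 in the lower set and by 0.44 to 0.48 in the higher set. For the GAPDH control this difference overlapped between the sets, at 0.13 to 0.15 in the lower and 0.14 to 0.22 in the higher. The leading component of the 45 genes, with 58.6% of their variance over the 9 arrays, had 1 sign in the lower set and the opposite sign in the higher set.

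For 13 of the 45 genes (28.9%), the levels of the sets did not overlap, against 8.19% of all genes and 11.6% of genes above the median level. WASF2, the WAVE protein that activates Arp2/3, read 10.34, 9.54 and 9.59 in control batches 1 to 3, 10.31, 10.31 and 9.55 after CD40L, and 10.28, 10.26 and 9.37 after LPS. The difference of WASF2, higher set minus lower set, was −0.79 on the log2 scale. ACTN4, VCL, CAPZB, MSN, CYFIP2, GSN and WAS were lower in the higher set too, by −0.16 to −0.39. ACTR3, TMSB4X, CFL1, ACTB and TMSB10 were higher there, by 0.19 to 0.43. Whatever separates these arrays was not tested as a cause. Because control replicate 2 stands with the other set than the treated arrays of its batch, calls that change without it, or with the set of arrays as a term in place of the batch, are given beside the gene.

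**Figure D1:**
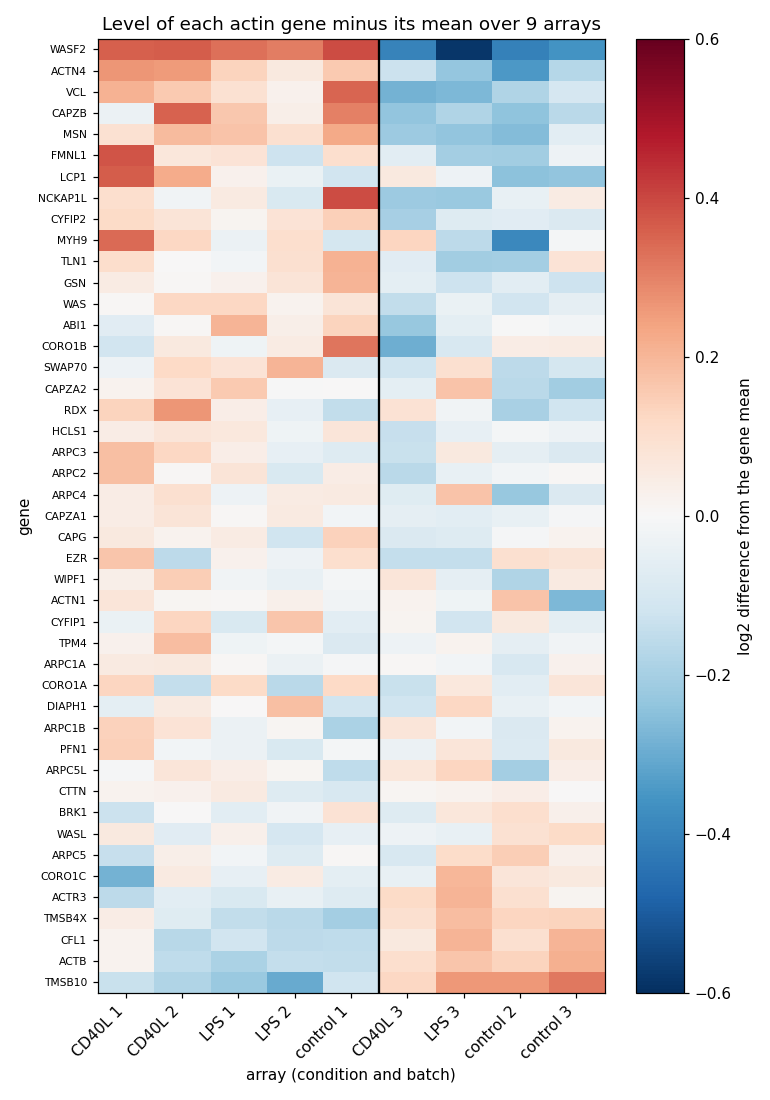
Each row is 1 of the 45 actin genes and each column 1 of the 9 arrays, and colour gives the log2 level minus the mean of the gene over all arrays. The line separates the 5 arrays with the lower GAPDH control reading, on the left, from the 4 with the higher reading. WASF2 at the top is lower and TMSB10 at the bottom higher in the right-hand set, across conditions.

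To ask whether the stimuli changed these genes, each condition was compared with control in limma with batch as a term, with Benjamini-Hochberg adjustment across the 54613 probe sets. LCP1, RDX and MYH9 rose after CD40L, none of the 45 genes fell, and none passed the test after LPS. The share higher after CD40L was 3 of 45 (6.67%), against 5.03% of all genes and 7.81% of genes above the median level. The share lower was 0 of 45, against 2.92% and 4.47%. After LPS, 0 of 45 were higher, against 1.62% and 2.51%, and 0 of 45 lower, against 1.48% and 2.3%. The share of these genes called was thus close to the background in each case. At an unadjusted p under 0.05 limma listed 12 of the 45 genes after CD40L. Beside this stood 3942 of all 19775 genes and 3660 of the 12630 genes above the median level. After LPS it listed 10 of the 45, beside 2964 of all genes and 2717 of those above the median level.

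The median log2 fold change of the 45 genes was 0.026 after CD40L, with a range of −0.25 for CORO1B to 0.41 for LCP1. The median of all genes was 0.0051. After LPS it was 0.012, with a range of −0.24 for TMSB10 to 0.24 for SWAP70, beside 0.0018 for all genes. The standard errors had a median of 0.065. A log2 difference of 0.5 is 1.41-fold where probe sets are bright, while changes of dim probe sets are compressed on this scale. For 41 of the 42 genes not called after CD40L, the whole 95% interval of the change lay within 0.5 of 0. The exception was WASF2, whose interval ran from −0.04 to 0.50. After LPS the intervals of all 45 genes lay within that bound. This holds for the probe set that stood for each gene. On a dimmer ACTR3 probe set, 228603_at, the interval after LPS ran from 0.66 to 1.01.

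**Figure D2:**
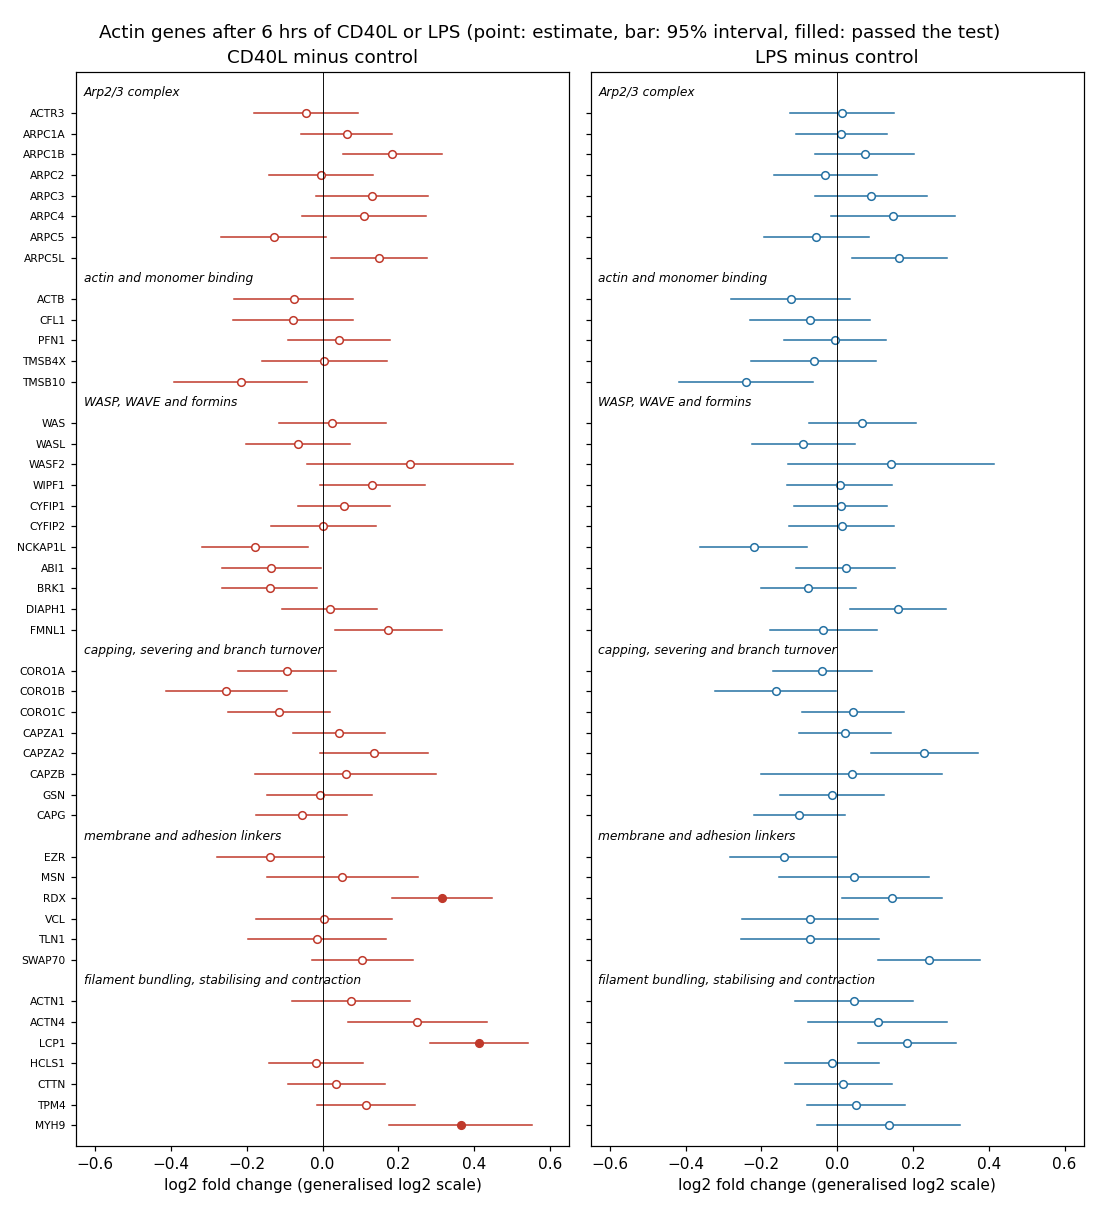
Points give the log2 fold change of each of 45 actin genes, CD40L minus control on the left and LPS minus control on the right, and bars the 95% interval from limma (n = 3 arrays per condition). Filled points passed the test at an adjusted p of 0.05: LCP1, RDX and MYH9 after CD40L and none after LPS.

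LCP1 encodes L-plastin, which bundles actin filaments in blood cells. Its level was 12.22, 12.09 and 12.10 in the control arrays of batches 1 to 3, 12.70, 12.56 and 12.40 after CD40L, and 12.36, 12.30 and 12.31 after LPS. All CD40L arrays lay above all LPS arrays, and these above all control arrays. The rise after CD40L was 0.41 ± 0.060 on the log2 scale (SE), 1.33-fold (limma adjusted p = 0.000497), and it was seen in 3 of 3 batches. It kept its call in all 12 alternative analyses, with adjusted p-values of 0.000197 to 0.0248. The difference after LPS was 0.18 (limma adjusted p = 0.167).

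RDX encodes radixin, a relative of ezrin and moesin that links filaments to membrane proteins. Its level was 7.79, 7.75 and 7.82 in control, 8.08, 8.21 and 8.03 after CD40L, and 7.98, 7.89 and 7.92 after LPS. Here too the conditions did not overlap, with the LPS arrays in between. The rise after CD40L was 0.32 ± 0.062 (SE), 1.25-fold (limma adjusted p = 0.0052), in 3 of 3 batches. Without replicate 1 the rise was 0.33 and the limma adjusted p was 0.0618, at the upper end of the range of 0.00309 to 0.0618 over the 12 alternatives. The change after LPS was 0.14 (limma adjusted p = 0.363).

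RDX had 4 probe sets. A further one, 212398_at, rose by 0.23 after CD40L (limma adjusted p = 0.034), a call made in 4 of the 12 alternatives. It was lost without control replicate 2 (limma adjusted p = 0.142) and with the set of arrays as a term (0.0640), in a range over the alternatives of 0.0201 to 0.252. The remaining probe sets of RDX changed by 0.12 and −0.01, with limma adjusted p-values of 0.388 and 0.966.

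MYH9 encodes the heavy chain of non-muscle myosin IIA, the motor that contracts cortical actin. Its level was 8.83, 8.55 and 8.92 in control, 9.27, 9.06 and 9.06 after CD40L, and 8.90, 9.03 and 8.78 after LPS. The CD40L arrays lay above all others, while LPS and control overlapped. The rise after CD40L was 0.36 ± 0.088 (SE), 1.29-fold (limma adjusted p = 0.0218). This call rested in part on control replicate 2, the lowest array for MYH9: without it the rise was 0.24 and the limma adjusted p was 0.0625. It was also lost without replicate 1 (limma adjusted p = 0.218), without the batch block (0.0796) and with batch as a random effect (0.0598). Over all 12 alternatives the adjusted p ranged from 0.0144 to 0.218.

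**Figure D3:**
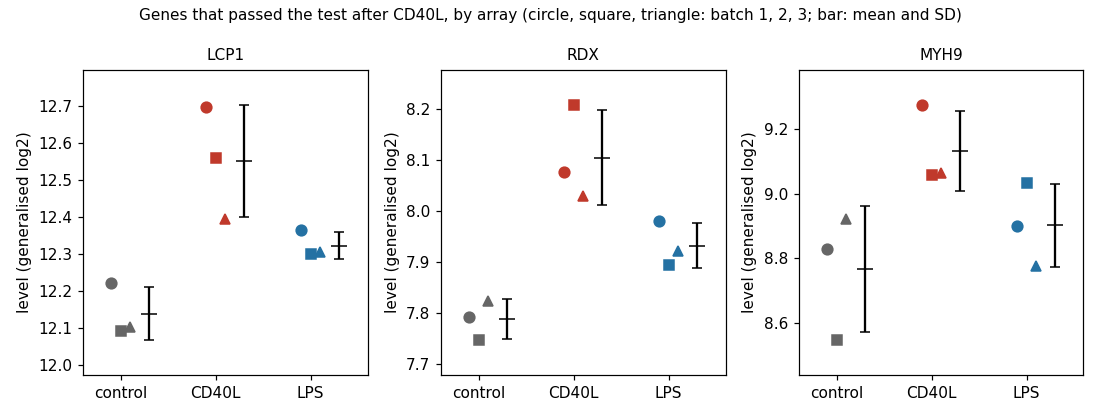
Levels of LCP1, RDX and MYH9 on the generalised log2 scale in each array, by condition, with circles, squares and triangles for batches 1, 2 and 3 and the mean ± SD beside them (n = 3). The vertical axes differ in range and do not start at 0. CD40L arrays lie above all control arrays in each panel, and the lowest control array of MYH9, at 8.55, is that of batch 2.

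The Arp2/3 complex was measured through 8 of its 9 genes, and none passed the test in either comparison. Their median log2 fold change was 0.087 after CD40L and 0.042 after LPS. Changes after CD40L ran from −0.13 for ARPC5 to 0.18 for ARPC1B, the subunit of blood cells that docks activators (limma adjusted p = 0.107). After LPS they ran from −0.05 for ARPC5 to 0.16 for ARPC5L.

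ACTR3, the actin-related protein ARP3 of the complex, had 5 probe sets that disagreed. On the brightest, 213101_s_at, the change was −0.04 after CD40L and 0.01 after LPS (limma adjusted p = 0.849 and 0.980). On 200996_at it was 0.04 and 0.09 (limma adjusted p = 0.874 and 0.643), and on 213102_at it was 0.19 and 0.18 (limma adjusted p = 0.101 and 0.201). None of these 3 probe sets passed the test. On 213102_at every treated array still lay above every control array, while on 213101_s_at and 200996_at the conditions overlapped.

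The remaining pair of ACTR3 probe sets rose after both stimuli. Probe set 228603_at read 8.16, 7.97 and 7.73 in control, 8.53, 8.80 and 8.59 after CD40L, and 8.82, 8.77 and 8.77 after LPS. Every treated array lay above every control array. The rise was 0.69 ± 0.082 (SE) after CD40L (limma adjusted p = 6.8e-05) and 0.83 ± 0.082 after LPS (limma adjusted p = 8.3e-05), and both calls held in all 12 alternatives. The CD40L to LPS difference on this probe set was −0.14, with a 95% interval of −0.32 to 0.03 (limma adjusted p = 0.999).

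Probe set 239170_at read 7.34, 6.96 and 7.07 in control, 7.46, 7.69 and 7.34 after CD40L, and 7.64, 7.61 and 7.43 after LPS. Its rise was 0.37 after CD40L (limma adjusted p = 0.0149) and 0.44 after LPS (limma adjusted p = 0.0117). These calls were made in 7 of 12 alternatives for CD40L and in 9 of 12 for LPS. Without replicate 2 the rise after CD40L was 0.20 (limma adjusted p = 0.136), while its adjusted p over all alternatives ranged from 0.00666 to 0.136. Which transcripts each ACTR3 probe set reads was not tested, and both stimuli were compared with the same control arrays.

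**Figure D4:**
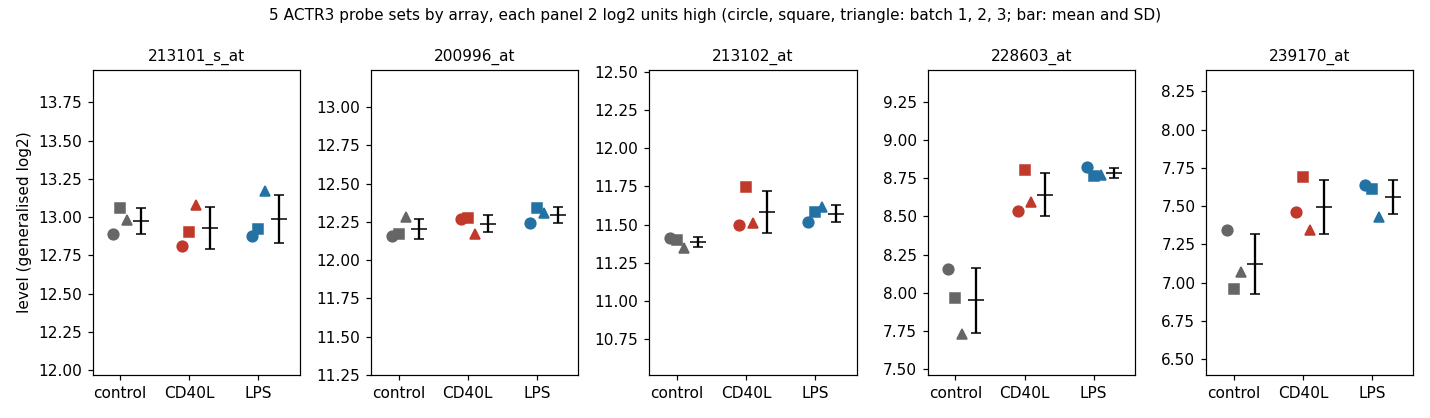
Level of each of the 5 ACTR3 probe sets in each array on the generalised log2 scale, with circles, squares and triangles for batches 1, 2 and 3 and the mean ± SD beside them (n = 3). Every panel spans the same height, so distances compare between panels. On 228603_at the treated arrays lie between 8.53 and 8.82 and the control arrays between 7.73 and 8.16, while on 213101_s_at the conditions overlap.

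Over the 9 arrays, with batch means removed, the genes whose levels ran most like the brightest ACTR3 probe set were ACTN1 (Pearson r = 0.70), ARPC5 (0.64), BRK1 (0.53), CORO1C (0.52) and TMSB10 (0.49). These are descriptions over 9 points that share batches and the array difference given above. The ACTN1 probe set was dim, at 6.70 to 7.14, and varied most between the control arrays (SD 0.22, against 0.03 in each treated condition).

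Of the actin and monomer-binding genes, 5 of 6 were measured and none passed the test. They are beta-actin itself (ACTB), the severing protein cofilin (CFL1), profilin (PFN1), which feeds monomers to growing ends, and the thymosins TMSB4X and TMSB10, which hold monomers in reserve. Their median change was −0.08 after CD40L and −0.07 after LPS. TMSB10 read 12.72, 13.10 and 13.15 in control, 12.70, 12.66 and 12.96 after CD40L, and 12.62, 12.54 and 13.10 after LPS. In batch 1 these values lay together, and the control array of batch 2 stood far above its treated partners. The changes of TMSB10 were −0.22 and −0.24 (limma adjusted p = 0.181 and 0.202). The 9 probe sets that name ACTB and ACTG1 together changed by 0.0041 to 0.065 after CD40L and by −0.016 to 0.079 after LPS, and none was called.

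All 11 genes of WASP, the WAVE complex and the formins were measured, and none passed the test. Their median change was 0.019 after CD40L and 0.0094 after LPS. WAS and WASL, which activate Arp2/3, and WIPF1, which stabilises WASP, changed by −0.09 to 0.13. The formins DIAPH1 and FMNL1 changed by 0.02 and 0.17 after CD40L, and by 0.16 and −0.04 after LPS.

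NCKAP1L, the HEM1 subunit of the WAVE complex in blood cells, had the lowest change of this group in both comparisons. It read 9.97, 9.54 and 9.63 in control, 9.68, 9.56 and 9.36 after CD40L, and 9.63, 9.49 and 9.36 after LPS. Treated arrays lay below control in batches 1 and 3, and control replicate 2 lay among the treated arrays. The change was −0.18 after CD40L and −0.22 after LPS (limma adjusted p = 0.163 and 0.120). Without control replicate 2 it was −0.27 and −0.31 (limma adjusted p = 0.00906 and 0.00497), within ranges over the alternatives of 0.00906 to 0.699 and 0.00497 to 0.664. With the set of arrays as a term both falls were called as well (limma adjusted p = 0.0116 and 0.00834).

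NCKAP1L was read by 2 further probe sets. Of these 238668_at read 8.20, 8.17 and 7.91 in control, 7.83, 7.93 and 7.69 after CD40L, and 7.79, 8.03 and 7.66 after LPS. Each treated array lay below the control of its batch, although the conditions overlapped. It fell by 0.27 after CD40L and by 0.27 after LPS (limma adjusted p = 0.0131 and 0.0315), calls made in 8 and 6 of 12 alternatives. On 217549_at the change was −0.18 and −0.10 (limma adjusted p = 0.245 and 0.727).

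The other subunits of the WAVE complex were ABI1, BRK1, CYFIP1 and CYFIP2. ABI1 changed by −0.14 after CD40L and 0.02 after LPS, and BRK1 by −0.14 and −0.08. CYFIP1 and CYFIP2, which bind RAC1, changed by 0.0017 to 0.06. CYFIP1 read 6.55 to 6.83, near the array medians, where changes are compressed on this scale.

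Of the 8 genes for capping, severing and branch turnover, all were measured and none passed the test. The median change was −0.03 after CD40L and 0.0036 after LPS. CORO1B, a coronin that takes part in the removal of branches, had the lowest estimate of all 45 genes after CD40L. It read 8.84, 8.57 and 8.57 in control, 8.41, 8.58 and 8.23 after CD40L, and 8.50, 8.57 and 8.43 after LPS. In batches 1 and 3 both treated arrays lay below control, and in batch 2 the arrays read nearly the same. The change after CD40L was −0.25 (limma adjusted p = 0.0625), and after LPS −0.16 (limma adjusted p = 0.417). Without control replicate 2 the values were −0.36 and −0.27 (limma adjusted p = 0.000592 and 0.0261), within ranges over the alternatives of 0.000592 to 0.538 and 0.0261 to 0.930. With the set of arrays as a term the fall after CD40L was called as well (limma adjusted p = 0.0021). A further CORO1B probe set, 221754_s_at, read 7.08 to 7.26. It changed by −0.05 after CD40L and by −0.05 after LPS (limma adjusted p = 0.82 and 0.87).

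The other coronins, CORO1A and CORO1C, changed by −0.09 and −0.11 after CD40L and by −0.04 and 0.04 after LPS. The capping protein subunits CAPZA1, CAPZA2 and CAPZB changed by 0.04 to 0.14 after CD40L and by 0.02 to 0.23 after LPS, with the highest value for CAPZA2 in both (limma adjusted p = 0.346 and 0.104). GSN and CAPG, both of the gelsolin family, changed by −0.10 to −0.0077.

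Among 6 measured genes that link filaments to membrane and adhesion sites, RDX alone passed the test. Its relatives ezrin (EZR) and moesin (MSN) changed by −0.14 and 0.05 after CD40L, and by −0.14 and 0.04 after LPS. On a further EZR probe set, 208623_s_at, levels were 10.84, 10.93 and 10.82 in control, 10.72, 10.61 and 10.60 after CD40L, and 10.71, 10.67 and 10.63 after LPS. Treated arrays lay below all control arrays on it. It fell by 0.23 after CD40L (limma adjusted p = 0.029), and changed by −0.20 after LPS (limma adjusted p = 0.108). The call after CD40L was made in 5 of 12 alternatives and was lost without control replicate 2 (limma adjusted p = 0.133, range over the alternatives 0.00645 to 0.198). Over the 5 EZR probe sets the change after CD40L ran from −0.23 to −0.10.

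Vinculin (VCL) and talin (TLN1), which connect integrins to actin, changed by −0.07 to 0.0042. SWAP70, which binds filaments and signals in B cells, read 11.37, 11.30 and 11.35 in control, 11.43, 11.58 and 11.33 after CD40L, and 11.54, 11.66 and 11.55 after LPS. The LPS arrays lay above all control arrays. The change after LPS was 0.24 (limma adjusted p = 0.061), and after CD40L 0.11 (limma adjusted p = 0.485). A SWAP70 probe set nearly as bright, 209306_s_at, changed by 0.22 after LPS and 0.10 after CD40L (limma adjusted p = 0.091 and 0.49). The dimmer SWAP70 probe set 210369_at, at 7.39 to 7.82, went the other way. It fell after CD40L by 0.25 (limma adjusted p = 0.0388), a call made in 7 of 12 alternatives.

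The group for bundling, stabilising and contracting filaments was measured through 7 of its 9 genes and held LCP1 and MYH9. The other 5 did not pass the test. ACTN4, a crosslinking alpha-actinin, changed by 0.25 after CD40L (limma adjusted p = 0.124) and 0.11 after LPS, and its relative ACTN1 by 0.08 and 0.04. HCLS1, the cortactin of blood cells, changed by −0.02 and −0.01, and cortactin itself (CTTN), at 6.37 to 6.52 near the array medians, by 0.04 and 0.02. Tropomyosin 4 (TPM4), which coats filaments, changed by 0.11 and 0.05. A further TPM4 probe set, 209344_at, rose by 0.26 after CD40L (limma adjusted p = 0.0484), a call made in 2 of 12 alternatives. It was lost without control replicate 2 (limma adjusted p = 0.181) and with the set of arrays as a term (0.0631), in a range over the alternatives of 0.0206 to 0.350.

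The 45 genes had 119 probe sets in all. After CD40L 7 of these rose and 3 fell, beside 3.71% and 1.87% of all probe sets. After LPS 2 rose and 1 fell, beside 1.17% and 0.892%. The study's methods kept the best responding probe set of a gene. By that choice 5 genes were higher after CD40L (ACTR3, RDX, LCP1, TPM4 and MYH9) and 3 lower (NCKAP1L, EZR and SWAP70), and after LPS ACTR3 was higher and NCKAP1L lower. Such a choice favours probe sets with large values, so its count has no place beside the background shares above.

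CD40L was also compared with LPS directly. None of the 45 genes was higher or lower by limma. The shares of all genes were 0.491% and 0.152%, and of genes above the median level 0.752% and 0.23%. At an unadjusted p under 0.05 limma listed 8 of the 45. Beside this stood 1240 of all 19775 genes and 1065 of the 12630 genes above the median level. The median difference was 0.024. LCP1 was higher by 0.23 after CD40L than after LPS, with a 95% interval of 0.10 to 0.36 (limma adjusted p = 0.230). It passed the test when CD40L and LPS arrays were fitted alone (limma adjusted p = 0.0448), at the lower end of the range of 0.0448 to 1.00. MYH9 was higher by 0.23 (limma adjusted p = 0.808), and without replicate 2 by 0.33 (limma adjusted p = 0.029, the lowest of its alternatives, which reached 1.00). The 95% intervals of this difference lay within 0.5 of 0 on the log2 scale for all 45 genes.

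Other actin-binding, myosin and spectrin genes were examined in the same fit. Of 63 such genes, 55 were measured. After CD40L 7 of the 55 rose (12.7%), beside 5.03% of all genes and 7.81% of genes above the median level. In the same comparison 5 fell (9.09%), beside 2.92% and 4.47%. After LPS 0 rose, beside 1.62% and 2.51%, and 4 fell (7.27%), beside 1.48% and 2.3%. CD40L minus LPS gave 1 higher gene (1.82%), beside 0.491% and 0.752%, and 1 lower gene (1.82%), beside 0.152% and 0.23%. At an unadjusted p under 0.05 limma listed 18 of the 55 after CD40L. Beside this stood 3942 of all 19775 genes and 3660 of the 12630 genes above the median level. After LPS it listed 15 of the 55, beside 2964 of all genes and 2717 of those above the median level. WASF3, a WAVE protein, read 7.04, 7.13 and 7.17 in control, 6.39, 6.52 and 6.44 after CD40L, and 6.63, 6.78 and 6.74 after LPS. It fell in 3 of 3 batches, by 0.66 after CD40L (limma adjusted p = 1.6e-06) and by 0.40 after LPS (limma adjusted p = 0.00101), in all 12 alternatives. The direct difference, CD40L minus LPS, was −0.27 (limma adjusted p = 0.0484, called in 5 of 12 alternatives). The level after CD40L was near the array medians, where the scale compresses a fall.

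PLEK encodes pleckstrin, which alters cortical actin in blood cells. It read 8.80, 8.49 and 8.72 in control, 9.27, 9.26 and 9.24 after CD40L, and 8.89, 8.85 and 8.91 after LPS. The rise after CD40L was 0.58 (limma adjusted p = 3.0e-05), called in all 12 alternatives. After LPS the change was 0.21 (limma adjusted p = 0.128), and the direct difference was 0.38 (limma adjusted p = 0.0129, called in 8 of 12 alternatives).

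ADD3, an adducin that caps filaments at the spectrin lattice, fell by 0.49 after CD40L (limma adjusted p = 0.000123) and by 0.38 after LPS (limma adjusted p = 0.00363). The formin DAAM1 fell by 0.50 and by 0.29 (limma adjusted p = 0.000139 and 0.0262). The spectrin chain SPTBN1 fell by 0.30 and by 0.28 (limma adjusted p = 0.0059 and 0.0186). After CD40L the calls of ADD3 and DAAM1 held in all 12 alternatives and that of SPTBN1 in 7. After LPS they held in 11, 6 and 6 of the 12. With the set of arrays as a term the calls of SPTBN1 were lost after CD40L (limma adjusted p = 0.0537, range over the alternatives 0.000846 to 0.146) and after LPS (0.131, range 0.00459 to 0.350).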

How the data were processed

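BL2 cells were profiled on HG-U133 Plus 2.0 arrays, 3 per condition, 9 in all. The authors corrected the background and normalised probe intensities by variance stabilisation, used median polish to summarise each probe set and deposited log2 values (generalised log2), which were taken as they are. Columns left unused numbered 0. The scale compresses changes of dim probe sets, and precision is limited by the small number of arrays. Of 54675 probe sets, 62 control probe sets were left out of the tests. The platform annotation named 1 gene for 41091 probe sets, several for 1801 and none for 11721. Symbols were checked against RefSeq gene tables (41037 matched), and promoter windows came from RefSeq, GRCh38.p14.

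Fold changes came from limma 3.58.1 in R 4.3.3 (lmFit, eBayes) with condition and batch as terms over all 9 arrays, two-sided, adjusted after Benjamini and Hochberg over 54613 probe sets, threshold 0.05, with 4 residual and 11.6 prior degrees of freedom. An exact permutation test of 3 against 3 arrays cannot go under p = 0.1 and was not used. The script was tested on simulated data. The study's methods model the batch, so the replicate number was taken as the pairing. Between arrays with the same number, deviations from the condition means had a mean correlation of 0.217, otherwise −0.109 (0.414 and −0.223 over the 45 genes), but control replicate 2 correlated with CD40L and LPS replicate 2 at −0.181 and −0.040.

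The members and lists were chosen with earlier results of these data known. All members could be named. Values in every array are given for genes that passed the test and for ACTR3 probe sets where they were called, and further for WASF2, TMSB10, NCKAP1L, CORO1B, SWAP70 and EZR, chosen after their values were seen. Of the list of other actin-binding, myosin and spectrin genes, up to 4 per comparison with the lowest adjusted p were named. A further list is not reported here. Alternatives were the fit without the batch block, batch as a random effect (statmod 1.5.0), quantile normalization, a fit on only the groups compared, dim probe sets filtered out, arrays centred on their medians, eBayes with trend and robust, each replicate left out, and another probe set per gene. The set of arrays as a term and control replicate 2 left out were added after seeing the data.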

Additional observations from a re-analysis of the deposited data

How the results depend on the processing

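The number of actin genes higher after CD40L was 3 in the reported analysis. It was 1 to 3 when a replicate was left out and 5 with the probe set of largest change per gene. Without control replicate 2, and with batch as a random effect, only LCP1 and RDX were called higher. The number lower, 0 as reported, was 5 after quantile normalization (TMSB10, NCKAP1L, ABI1, BRK1 and CORO1B), 2 with the set of arrays in place of the batch, 2 without control replicate 2, both times NCKAP1L and CORO1B, 3 with the probe set of largest change, and 0 to 2 when a replicate was left out. After LPS the number higher was 1 with the probe set of largest change (ACTR3) and 0 to 1 when a replicate was left out (CAPZA2). The number lower after LPS was 1 after quantile normalization, 1 with the set of arrays and 1 with the probe set of largest change (NCKAP1L each time), 2 without control replicate 2 (NCKAP1L and CORO1B), and 0 to 2 when a replicate was left out. For CD40L against LPS 1 gene was higher with only the groups compared (LCP1) and 0 to 1 when a replicate was left out (MYH9). The cause of these changes was not tested. Quantile normalization turned the median change after CD40L from 0.026 to −0.0040, against −0.0062 for all genes, and median centring left it at 0.029. With the probe set of largest change after CD40L, SWAP70 went from 0.11 to a called −0.25 and ACTR3 from −0.04 to a called 0.69.

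Without the replicate block, so without the pairing by batch, 2 genes were higher after CD40L (LCP1 and RDX) and 0 lower, and 0 were called in the other comparisons. The standard errors, with a median of 0.065 on the log2 scale, limit what 3 arrays per condition can resolve, and the scale compresses falls of probe sets near the array medians.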
